A study of Mus musculus with 15 samples.

Results

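Cdk9, Ccnt1, Ccnt2, Hexim1, Larp7, Mepce, Ell and Aff4 encode positive transcription elongation factor b (P-TEFb), the proteins that hold it on 7SK RNA and 2 subunits of the super elongation complex that carries it to genes. They were chosen by gene symbol alone, and all 8 were present among the 32285 genes counted in testis cells of adult DBA/2J mice. JQ1, an inhibitor of BET bromodomains, was given at 50 mg/kg each day for 3 wk into the peritoneum. Testes came from JQ1-treated mice at the end of dosing (T, 10 wk of age) and at 6 wk after the last dose (R, 16 wk), from mice given vehicle and taken at each of these times (VC-T, 10 wk; VC-R, 16 wk) and from untreated mice (UC, 15 wk). Each of the 5 groups had 3 libraries, and each library was made from 1 testis of 1 mouse. T and UC differed in age as well as treatment, which cannot be told apart in that comparison, whereas T and VC-T had the same age.

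P-TEFb is the kinase CDK9 bound to cyclin T1 or cyclin T2, and it releases RNA polymerase II from the pause near the start of genes by phosphorylating the polymerase, NELF and DSIF. Much of it is kept inactive in the 7SK small nuclear ribonucleoprotein, where LARP7 and MEPCE bind and cap the 7SK RNA and HEXIM1 inhibits the kinase. The super elongation complex, built on the AFF4 scaffold with ELL, is a known recruiter of the active kinase, and Hexim1 is known in many cultured cells as a transcript that rises under BET inhibitors.

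Libraries held 3407 to 14221 barcodes and 9673587 to 98724984 unique molecular identifiers (UMIs), and 2430 to 12744 cells remained after filters. Cells were clustered without the 8 genes and named from markers as spermatogonia-, spermatocyte-, spermatid-, spermatozoa- and Sertoli-like. In spermatogonia-like cells, the 7 spermatogonial markers summed to 781 to 1970 UMIs per 1000000 (CPM), but the 7 spermatocyte markers reached 3178 to 4050 in UC, 4067 to 5701 in VC-R, 3068 to 3397 in VC-T and 4424 to 5411 in R, more than in the spermatocyte-like cells of the same groups (2254 to 2964), so the class also held cells that had begun the meiotic program. T stood apart at 1412 to 1706, below its spermatocyte-like cells (2744 to 2867). T had 3, 1 and 4 spermatozoa-like cells, and VC-T 1 had 0, so that VC-T 1 resembled T rather than VC-T 2 and VC-T 3, which had 1021 and 1616. The study left VC-T 1 out of its own differential expression, as an outlier by principal components and correlation that it judged technical. VC-T 1 was also left out of the main comparisons here, and its values are given apart. Libraries shared at most 0.554% of barcodes. Levels are given as CPM, the UMIs of a gene per 1000000 UMIs of a class, cluster or pseudotime bin in a library. Because UMIs are counted at the 3′ end of a transcript, levels are compared between classes and groups of 1 gene, not between genes. Fold changes and tests used TMM-scaled libraries, and in germ cell classes this scaling lowered the median log2 fold change of T or R by up to 0.228, so that groups can overlap on one scale and not on the other. A class sum cannot tell a changed mix of cells within the class from a changed amount of RNA per cell.

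The kinase subunit was a transcript of early germ cells. In the 8 control libraries (UC, VC-R, VC-T 2 and VC-T 3), Cdk9 (chr2:32705784-32713076, minus strand, GRCm38, GENCODE vM21) was at 61.7 ± 14.2 CPM (SD, n = 8) in spermatogonia-like cells and 13.0 ± 2.41 in spermatocyte-like cells. It was at 1.03 ± 0.854 in spermatid-like and 0.691 ± 0.344 in spermatozoa-like cells. Spermatogonia-like cells were higher than spermatocyte-like cells in 8 of 8 libraries, 4.75-fold on average, and spermatocyte-like cells were 12.6-fold above spermatid-like cells without overlap. The last pair of classes overlapped, with 37 and 39 UMIs of Cdk9 in all 8 libraries.

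The cyclin partners did not follow the kinase alike. Ccnt2 (chr1:127774164-127808061, plus strand), which encodes cyclin T2, fell along the same course as Cdk9, from 34.5 ± 10.9 CPM in spermatogonia-like cells to 4.61 ± 1.03, 1.08 ± 0.371 and 0.289 ± 0.196 in the later classes, and each step was downward in 8 of 8 libraries. Ccnt1 (chr15:98538689-98570923, minus strand), which encodes cyclin T1, was at 59.4 ± 15.0 in spermatogonia-like and 12.7 ± 1.74 in spermatocyte-like cells. It then stood at 26.7 ± 3.38 in spermatid-like cells, 2.11-fold above spermatocyte-like cells and higher in 8 of 8 libraries without overlap, before 4.04 ± 0.863 in spermatozoa-like cells. Along the clusters, ordered by pseudotime (a ranking of cells by diffusion distance from the earliest spermatogonia-like cluster), Ccnt1 stood at 7.48 ± 3.11 in cluster 11, the lowest of the spermatocyte- and spermatid-like clusters, and stood at 35.5 ± 5.16 in the spermatid-like cluster 7. Clusters 19 and 18, spermatid-like clusters of few UMIs per cell, stood higher, at 72.9 ± 40.9 (n = 5 libraries) and 46.75 ± 26.0 (n = 3). An antisense gene, 9330020H09Rik, overlaps Ccnt1 on the opposite strand, and whether the counting used strand was not stated in the sources used here.

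The 7SK proteins took 3 different courses. Hexim1 (chr11:103116231-103119725, plus strand), the kinase inhibitor, had the fewest UMIs of the 8 genes in germ cells. Its mean was 14.0 ± 7.35 CPM in spermatogonia-like cells, from 72 UMIs in all, and 5.96 ± 1.24 in spermatocyte-like cells. Spermatid-like cells held 9 Hexim1 UMIs in the 8 libraries together, with 0 in 5 of them, and these 5 zeros allow at most 0.612 to 1.07 CPM.

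Larp7 (chr3:127536714-127553349, minus strand), the 7SK-binding La-related protein, went the opposite way through meiosis. It stood at 228 ± 52.1 CPM in spermatogonia-like cells, 591 ± 61.4 in spermatocyte-like cells, 441 ± 47.2 in spermatid-like cells and 73.7 ± 7.71 in spermatozoa-like cells. Spermatocyte-like cells were 2.59-fold above spermatogonia-like cells in 8 of 8 libraries without overlap. Among clusters present in all 8 libraries it was highest in cluster 11, at 689 ± 47.6. Mepce (chr5:137781906-137787655, minus strand), the 7SK capping enzyme, was held through meiosis, at 63.4 ± 16.7 in spermatogonia-like and 53.1 ± 5.37 in spermatocyte-like cells, which overlapped, and stood at 21.9 ± 4.65 in spermatid-like and 12.3 ± 1.81 in spermatozoa-like cells.

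The super elongation complex genes were high early but came back or stayed on late. Ell (chr8:70539457-70592858, plus strand), an elongation factor, was at 42.5 ± 11.0, 17.5 ± 2.32, 7.42 ± 1.58 and 10.8 ± 1.92 CPM in the 4 germ cell classes in order, and the last value was the higher of the last pair in 7 of 8 libraries. Within the late clusters it went from 1.36 ± 1.32 in the spermatid-like cluster 7 to 12.7 ± 3.8 in the spermatid-like cluster 15 and 20.8 ± 4.04 in the spermatozoa-like cluster 12. Cluster 14, a spermatid-like cluster of few UMIs per cell, lay between clusters 15 and 12 in pseudotime. It had the highest Ell of all clusters, at 45.3 ± 26.8 (n = 7, 40 UMIs). Aff4 (chr11:53350833-53421830, plus strand), the scaffold, was at 108 ± 36.4, 27.0 ± 3.68, 32.6 ± 5.89 and 8.93 ± 2.24 in the same classes.

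Aff4 differed between the 2 clusters of the spermatogonia-like class. Cluster 16 had 25.6 ± 9.64 CPM of Aff4 and cluster 22 had 199.6 ± 44.5 (n = 8 libraries, 64 and 432 UMIs). Stra8, Meiob and Rad51ap2, genes switched on as germ cells enter meiosis, were among the leading genes of cluster 22. Larp7 was also higher in cluster 22, at 315 ± 57.4 against 145 ± 14.7, whereas Cdk9 was lower there, at 40.7 ± 10.6 against 78.4 ± 19.1.

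**Figure D1:**
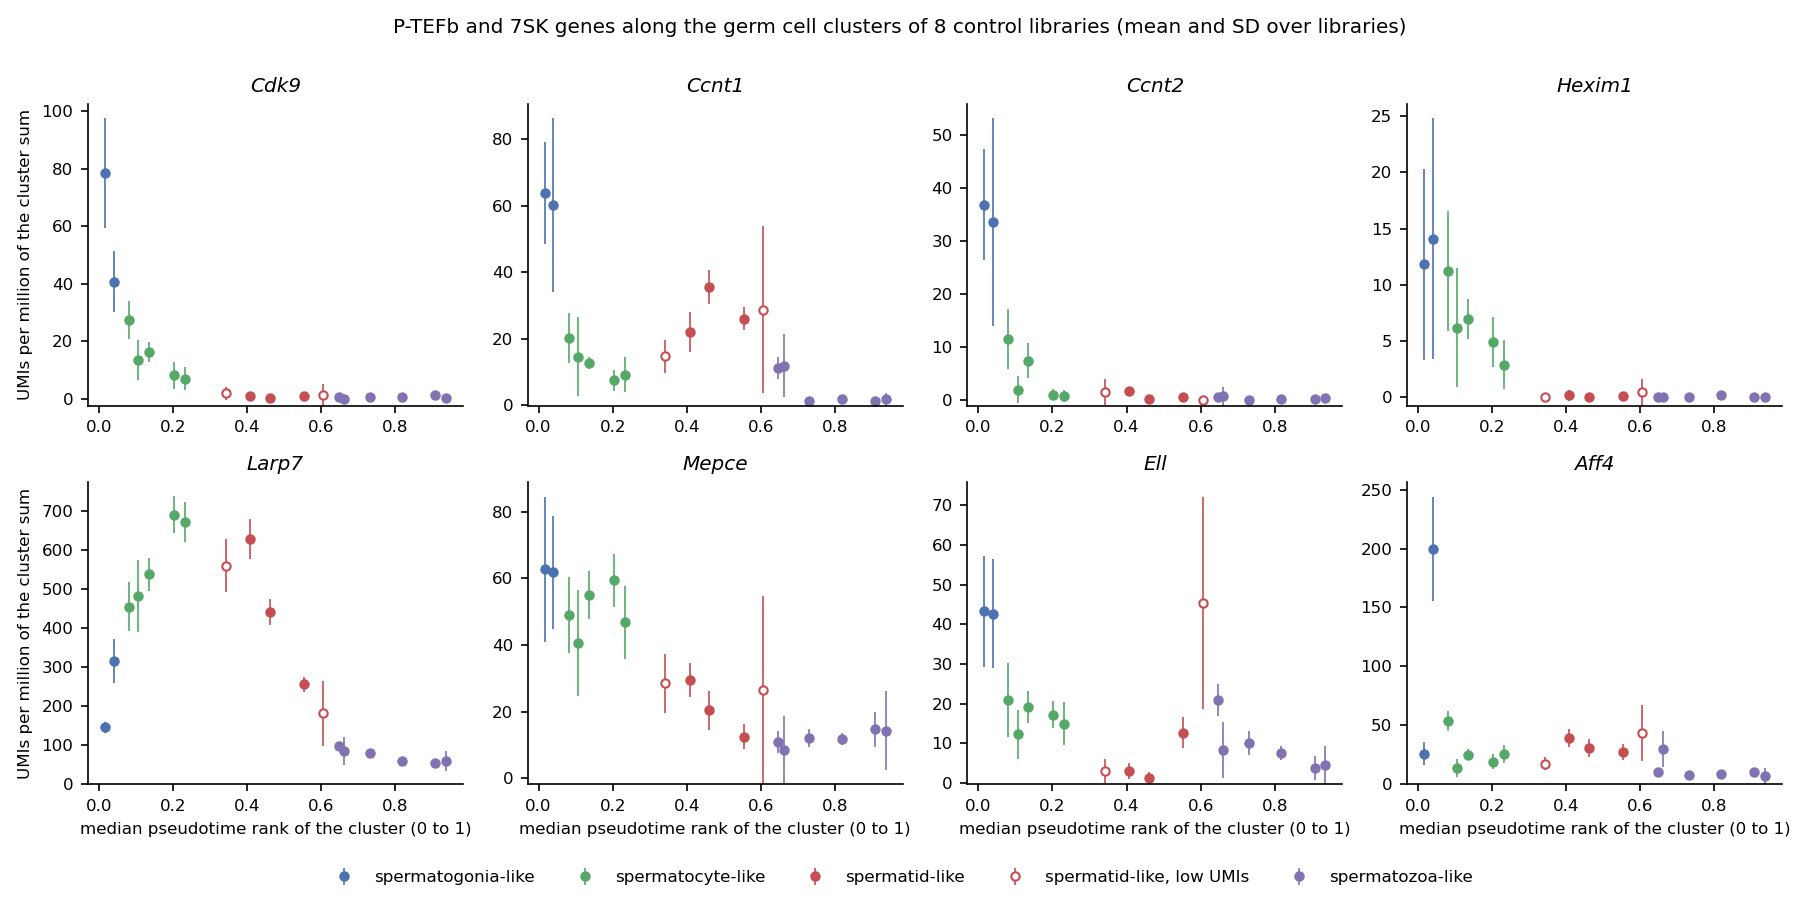
CPM of each of the 8 genes (y axis) in the germ cell clusters held by at least 6 of 8 control libraries, placed by the median pseudotime rank of the cluster from 0 to 1 (x axis). Points are means and bars 1 SD over libraries, colours are classes, and open points are clusters of spermatid-like cells with few UMIs. Aff4 peaked at 199.6 in cluster 22, Larp7 peaked among late spermatocyte-like clusters, and Ccnt1 came back to 35.5 among spermatid-like clusters.

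Over the 53 class sums of the 14 libraries other than VC-T 1, Cdk9 was most like Ccnt2 among the other 7 genes (Pearson r = 0.959 of log2 of CPM plus 1) and Ccnt1 was most like Aff4 (r = 0.897), whereas Larp7 and Ell had an r of -0.0198. These sums share libraries and stages, so the values describe the stage pattern only. Among 7157 other genes, the nearest to Cdk9 were Anapc4, Gjc1 and Dnmt1 (r of 0.987, 0.987 and 0.986), and the nearest to Aff4 were Poln, Ccdc18 and Gm16599 (0.960, 0.951 and 0.951).

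CREM, a transcription factor of haploid germ cells, is known to bind the cAMP response element TGACGTCA and its core TGACG. Promoters of the 3 genes that hold the core are shown. Ell, which also came back in late clusters, does not hold it, so the genes shown give no link between stage and motif. The sequences are RefSeq promoters (GRCm38.p6), from 250 bases before to 50 bases after the start, and 7 of the 8 genes matched that table. They are Larp7 (chr3:127553300-127553599, minus strand), Ccnt1 (chr15:98567687-98567986, minus strand) and Aff4 (chr11:53350517-53350816, plus strand), with Cdk9 (chr2:32712735-32713034, minus strand) as a gene without a match. Capitals mark TGACG and its reverse complement CGTCA, so that both strands were searched.
Larp7: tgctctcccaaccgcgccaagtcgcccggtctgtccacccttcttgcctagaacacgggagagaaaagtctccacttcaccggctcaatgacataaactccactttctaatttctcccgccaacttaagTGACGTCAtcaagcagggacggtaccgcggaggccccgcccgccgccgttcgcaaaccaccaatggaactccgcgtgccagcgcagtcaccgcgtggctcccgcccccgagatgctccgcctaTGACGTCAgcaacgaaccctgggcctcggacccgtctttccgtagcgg
Ccnt1: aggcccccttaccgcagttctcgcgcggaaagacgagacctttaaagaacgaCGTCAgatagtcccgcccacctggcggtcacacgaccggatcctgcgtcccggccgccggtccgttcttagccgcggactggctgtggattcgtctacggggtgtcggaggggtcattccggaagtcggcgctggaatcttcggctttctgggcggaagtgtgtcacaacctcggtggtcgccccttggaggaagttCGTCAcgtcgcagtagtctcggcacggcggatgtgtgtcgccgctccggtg
Aff4: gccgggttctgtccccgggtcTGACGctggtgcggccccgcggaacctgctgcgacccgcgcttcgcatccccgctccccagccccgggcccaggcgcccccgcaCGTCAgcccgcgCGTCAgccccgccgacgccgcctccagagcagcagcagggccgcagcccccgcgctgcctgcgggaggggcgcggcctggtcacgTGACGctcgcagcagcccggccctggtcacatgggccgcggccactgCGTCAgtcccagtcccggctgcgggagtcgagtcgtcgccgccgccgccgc
Cdk9: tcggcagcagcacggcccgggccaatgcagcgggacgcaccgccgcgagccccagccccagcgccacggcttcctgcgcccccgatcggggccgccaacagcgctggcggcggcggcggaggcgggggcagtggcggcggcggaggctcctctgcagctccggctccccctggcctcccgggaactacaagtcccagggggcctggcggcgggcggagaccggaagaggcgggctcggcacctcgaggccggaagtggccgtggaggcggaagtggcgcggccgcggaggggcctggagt

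Larp7 held the full element 2 times, with first bases 121 bases before and 2 bases after the start. At least 1 full element was present in 1.79% of 32851 RefSeq promoters and at least 2 in 0.0396%. The core TGACG, which the full element contains on each strand, was present in 20.8% of promoters. Aff4 held it 5 times (0.0548% of promoters held as many), Ccnt1 held it 2 times (5.01%), and Cdk9, Ccnt2, Hexim1 and Ell did not hold it. The MYB core AACGG (17.4% of promoters) was found in Ccnt1, Hexim1 and Larp7, CCAAT (37.4%) in Cdk9, Ccnt2, Hexim1 and Larp7, the GC box GGGCGG (35.7%) in 6 of 7, all but Aff4, and TATAAA (13.6%) in none of the 7. The motifs were chosen with the stage levels known, and a match describes letters in this window, not binding.

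The comparison of T with UC and with VC-T asked whether JQ1 altered the P-TEFb genes at the end of dosing. Aff4 was lower in spermatogonia-like cells and Ell in spermatid-like cells of T against both controls, and Mepce was higher in spermatid-like cells of T against both. Cdk9, Ccnt1 and Ccnt2, the genes of P-TEFb itself, were called in no class in either comparison (edgeR), and 1 of their pairs had an unadjusted p under 0.05, Ccnt1 in spermatid-like cells against UC. Against UC, 20 gene-by-class pairs of the 8 genes could be tested by edgeR's quasi-likelihood test in 3 germ cell classes, and 4 were called at an adjusted p under 0.05 (20%), where 20.7% of all gene-by-class pairs were called. Of these, 2 were higher (9.1% of all pairs) and 2 lower (11.6%), and 2 also passed an absolute log2 fold change of 1 (6.64%). By class, 1 of 7 tested genes was called in spermatogonia-like cells (14.2% of all genes), 0 of 8 in spermatocyte-like cells (4.28%; 2 at an unadjusted p under 0.05) and 3 of 5 in spermatid-like cells (40.9%). Against VC-T, 6 of 22 pairs were called (27.3%, against 18.9% of all pairs), 3 higher (7.94%) and 3 lower (10.9%), and 2 passed a log2 fold change of 1 (9.09%). By class these were 1 in spermatogonia-like (13% of all genes), 3 in spermatocyte-like (14.1%) and 2 in spermatid-like cells (27.4%). The 2 comparisons share the T libraries. With VC-T 1 kept in, edgeR called 0 of 20 pairs (6 at an unadjusted p under 0.05), and over all genes it called 0 in spermatogonia-like, 0.481% in spermatocyte-like and 0 in spermatid-like cells. VC-T 2 stood apart in spermatid-like cells, where clusters of few UMIs (median per cell under 0.5 times that of all UC spermatid-like cells) held 83.3% of its cells, against 29.4% in VC-T 3, 27.6 to 40.7% in T and 23.5 to 34.5% in UC. When cells were matched between groups on pseudotime, which left 67 to 423 cells of a class per library, Aff4 in spermatogonia-like and Ell in spermatid-like cells could not be tested, and none of the other called pairs of T was called.

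**Figure D2:**
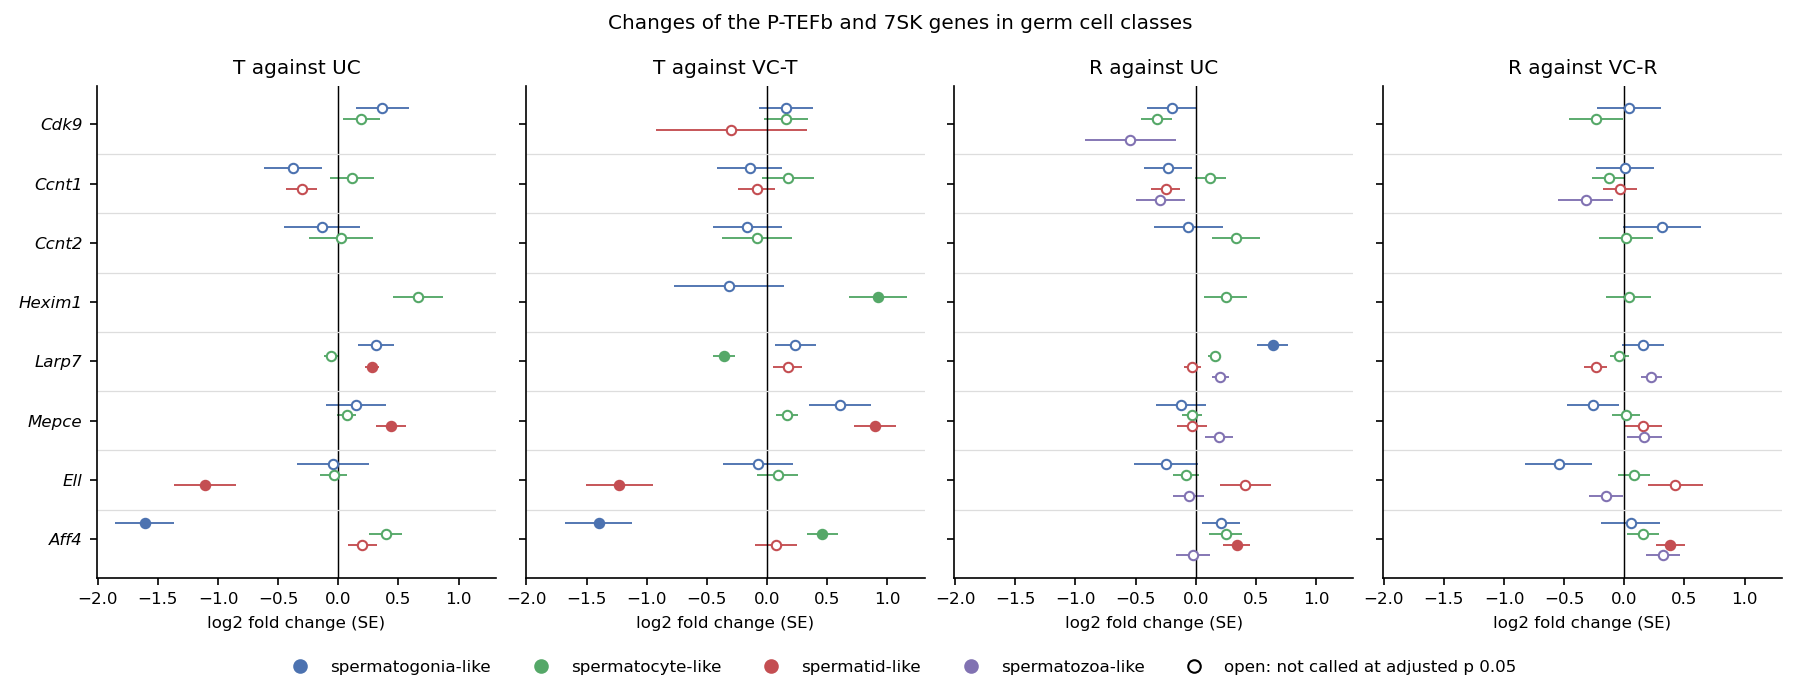
Log2 fold change with its SE (x axis) of each gene (y axis) in the germ cell classes for T against UC, T against VC-T, R against UC and R against VC-R. Filled points passed an adjusted p of 0.05 in edgeR. The fall of Aff4 in spermatogonia-like cells of T (-1.61 and -1.40) and of Ell in spermatid-like cells of T (-1.11 and -1.23) lie farthest from 0 among the filled points.

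Cdk9, the kinase, stood at 75.2, 98.8 and 82.3 CPM in spermatogonia-like cells of T, above 71.4, 60.3 and 65.0 in UC. VC-T 2 and VC-T 3 stood at 72.5 and 74.05, also below T, and VC-T 1 at 41.6. T and UC did not overlap, but the log2 fold change of 0.36 (SE 0.22) was not called (adjusted p = 0.293, edgeR). Nor was Cdk9 called there against VC-T. Cluster 16, the cluster higher in Cdk9, held 94.0 to 95.9% of these cells in T and 49.4 to 67.3% in UC. Within cluster 16 the groups overlapped for Cdk9, at 78.4, 102.6 and 89.7 in T and 89.85, 65.1 and 83.0 in UC. In spermatocyte-like cells it stood at 14.6, 15.6 and 19.2 in T and 13.0, 13.7 and 12.5 in UC, without overlap on this scale but overlapping after TMM scaling (13.9 to 18.3 against 13.1 to 14.2), and were not called (log2 fold change 0.19, SE 0.15, adjusted p = 0.531, edgeR). In the same class VC-T 2 and VC-T 3 stood at 12.6 and 13.2 and VC-T 1 at 16.6, and Cdk9 was not called against VC-T. Spermatid-like cells held 27 Cdk9 UMIs in T and 8 in UC and were not tested against UC. VC-T 2 and VC-T 3 held 18 together, and the test against VC-T gave no call.

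Ccnt1, the cyclin that came back in spermatid-like cells, stood there at 26.2, 25.7 and 27.9 CPM in T and at 32.4, 27.0 and 29.1 in UC. These overlapped, though not after TMM scaling, and the log2 fold change of -0.30 (SE 0.13) was not called (adjusted p = 0.0689, edgeR). Against VC-T it was -0.08 (SE 0.15). The log2 fold change of Ccnt2 lay between -0.16 and 0.02 in the classes where it was tested.

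Hexim1, the inhibitor, was higher in spermatocyte-like cells of T than in either control. It stood at 8.92, 11.1 and 10.4 CPM in T, 4.40 and 5.11 in VC-T 2 and VC-T 3, and 6.85, 5.41 and 5.03 in UC, and T overlapped neither group. The log2 fold change was 0.92 (SE 0.24, adjusted p = 0.0296, edgeR) against VC-T and 0.67 (SE 0.21, adjusted p = 0.113) against UC, so that it was called against VC-T alone. VC-T 1 stood between, at 7.19, and with it the value was 0.73 (adjusted p = 0.179). With all germ cells divided by pseudotime rank into 10 bins, bin 2, made of 99.2% spermatocyte-like cells, had 11.4 to 12.4 CPM of Hexim1 in T, while UC had 6.09 to 7.24 and VC-T 6.03 to 7.5. T overlapped both in bin 1, of which 50.2% were spermatocyte-like cells (8.65 to 11.9 in T and 7.86 to 12.2 in UC), and overlapped UC in bin 3, of which 79.1% were (6.18 to 10.3 against 2.54 to 6.88). The mix of clusters moved with Hexim1: cluster 10, where it was highest among spermatocyte-like clusters of control libraries (11.2 CPM, against 2.90 to 6.97 in clusters 3, 8 and 11), made up 20.8% of the spermatocyte-like cells of T pooled, 11.9% of UC and 13.8% of the 3 VC-T libraries. The 7 spermatogonial markers were also higher in spermatocyte-like cells of T, at 47.5 to 56.0 CPM. They stood at 27.75 to 33.15 in UC and 25.65 to 28.8 in VC-T. The parts of this mix and of these markers in the result were not tested. In spermatogonia-like cells Hexim1 was at 13.8, 8.07 and 13.3 in T and 14.1 and 14.8 in VC-T (log2 fold change -0.31, SE 0.46). The call against VC-T was lost matched on pseudotime (0.76, adjusted p = 0.330), by DESeq2 (adjusted p = 0.0930) and when T 2, T 3, VC-T 2 or VC-T 3 was left out (adjusted p of 0.0653 to 0.183).

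Larp7, the 7SK-binding protein, was at 565, 544 and 548 CPM in spermatid-like cells of T and 423, 398 and 406 in UC. T lay above UC without overlap, with a log2 fold change of 0.28 (SE 0.06, adjusted p = 0.00160, edgeR). VC-T 2 and VC-T 3 stood at 465 and 413, also below T, but that difference of 0.17 (SE 0.12) was not called (adjusted p = 0.328). Matched on pseudotime, the value against UC was 0.13 (SE 0.06) and was not called (adjusted p = 0.200). The mix of spermatid-like clusters differed between T and UC. Cluster 15, with 255 CPM of Larp7 in control libraries, made up 5.67% of the pooled spermatid-like cells of T and 26.3% of those of UC. Cluster 2, with 627, made up 38.7% and 23.7%. Markers of other classes moved in these cells too. The 7 spermatocyte markers summed to 761 to 808 CPM in T, 459 to 510 in UC and 416 to 593.5 in VC-T. The 5 spermatozoa markers summed to 2954 to 3244 in T, 4447 to 5130 in UC and 4940 to 5080 in VC-T. The parts of these shifts in the result were not tested. Within bins 4, 5 and 6, of which 87.9 to 98.2% were spermatid-like cells, T lay above UC without overlap (583 to 662 against 538 to 576, 503 to 558 against 423 to 477 and 362 to 416 against 242 to 289), and T overlapped VC-T in bins 4 and 5. In spermatocyte-like cells T stood at 572, 585 and 532.5 against 647 and 632.5 in VC-T, which was lower by test (log2 fold change -0.36, SE 0.09, adjusted p = 0.0272, edgeR), and against 498, 552 and 550 in UC, which overlapped. That call was lost in 7 of 15 alternatives: matched on pseudotime (-0.13, adjusted p = 0.421), without TMM scaling (-0.18, 0.0923), with a replicate block (0.106), with VC-T 1 kept in (0.206) and when T 3, VC-T 2 or VC-T 3 was left out (0.0617 to 0.15).

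Mepce, the capping enzyme, was higher in spermatid-like cells of T. It stood at 38.5, 34.1 and 38.4 CPM in T, 24.7, 25.3 and 23.6 in UC and 21.4 and 14.0 in VC-T 2 and VC-T 3. T lay above every control library, and the log2 fold change was 0.44 (SE 0.13, adjusted p = 0.0107, edgeR) against UC and 0.90 (SE 0.17, adjusted p = 0.00300) against VC-T. VC-T 1, at 28.0, lay below T too, and with it the value was 0.69 (adjusted p = 0.122). Without VC-T 2 it was 1.12 (adjusted p = 0.00137). The call against UC was lost when UC 3 was left out (0.35, adjusted p = 0.0646), by DESeq2 (adjusted p = 0.0591) and matched on pseudotime (0.39, adjusted p = 0.161), and that against VC-T was lost matched (0.53, adjusted p = 0.248). Mepce also differed between the clusters whose mix moved, at 12.6 CPM in cluster 15 and 29.5 in cluster 2 of control libraries. The parts of this mix and of the marker shifts given with Larp7 were not tested. In the bins made mostly of spermatid-like cells, T was above UC and VC-T in bin 5, at 32.9 to 37.6 against 17.8 to 27.1, and overlapped UC in bin 4 (32.7 to 48.0 against 33.7 to 50.95) and bin 6 (15.4 to 25.5 against 11.5 to 28.5). In bins 2 and 3, which were mostly spermatocyte-like, T was at 59.5 to 63.5 and 72.5 to 77.2, above UC and VC-T (45.8 to 59.1 and 43.8 to 60.2). In the sums of spermatocyte-like cells T was at 62.4 to 63.4, above UC (49.9 to 58.4) and VC-T (48.5 to 51.1), and was called against neither. The change against UC differed between spermatid-like and spermatocyte-like cells by 0.16, which was not called (adjusted p = 0.718, edgeR).

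Ell, the elongation factor, was lower in spermatid-like cells of T. It stood at 3.99, 3.85 and 2.79 CPM in T against 8.49, 5.33 and 7.87 in UC and 8.64 and 6.86 in VC-T 2 and VC-T 3, from 66, 74 and 79 UMIs. T lay below every library of either control, with a log2 fold change of -1.11 (SE 0.26, adjusted p = 0.00315, edgeR) against UC and -1.23 (SE 0.28, adjusted p = 0.00759) against VC-T. VC-T 1 stood with T, at 3.38, and with it the value against VC-T was -0.90 (adjusted p = 0.212). Without VC-T 2 it was -1.17 (adjusted p = 0.0306). Ell too differed between the clusters whose mix moved, at 12.7 CPM in cluster 15, the smaller share of T, and 3.02 in cluster 2, the larger. Cluster 14, at 45.3 CPM of Ell, made up 2.99% of the pooled spermatid-like cells of T and 5.99% of those of UC. Within pseudotime bins T and UC overlapped in bin 4 (1.60 to 5.05 against 3.48 to 7.02) and bin 5 (1.93 to 3.5 against 0 to 4.72), and T was below in bin 6 (5.14 to 10.2 against 10.6 to 17.3), where it overlapped VC-T (10.1 to 11.0). These ranges rest on few counts, with 28, 21 and 15 Ell UMIs in bins 4, 5 and 6 of T and 12, 13 and 58 in those of UC. The parts of the cluster mix and of the marker shifts given with Larp7 in the result were not tested.

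**Figure D3:**
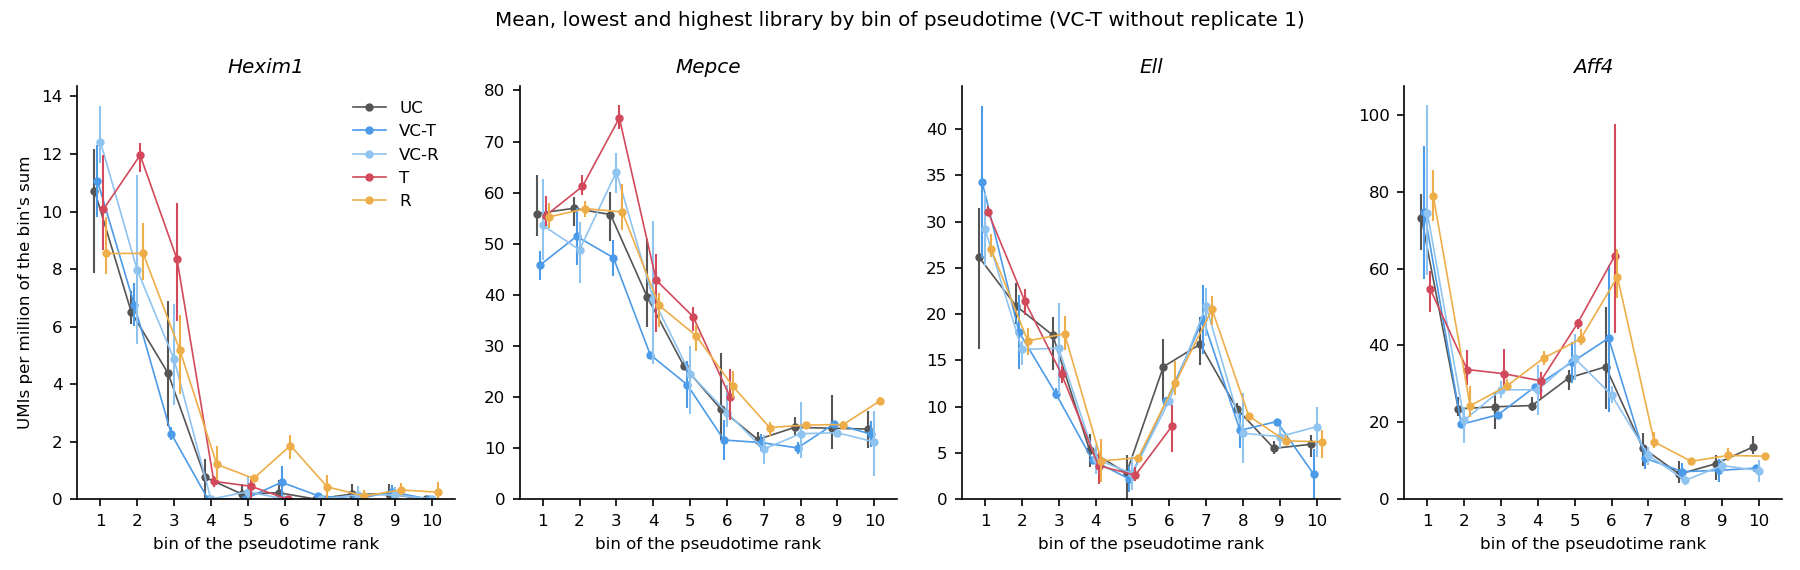
CPM of Hexim1, Mepce, Ell and Aff4 (y axis) by bin of the pseudotime rank (x axis, 1 to 10). Points are group means and bars run from the lowest to the highest library with enough cells, with VC-T 1 left out. T lay above UC and VC-T for Hexim1 in bin 2 (11.4 to 12.4) and for Mepce and Aff4 in bins 2, 3 and 5, and overlapped at least 1 of them for these genes in the other bins and for Ell in bins 1 to 6. T is not drawn after bin 6, where fewer than 2 of its libraries had enough cells.

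Aff4, the scaffold, showed the largest difference of the 8 genes. In spermatogonia-like cells it stood at 42.6, 34.3 and 23.9 CPM in T, 102, 101 and 113 in UC and 114 and 63.8 in VC-T 2 and VC-T 3. T lay below all of these, with a log2 fold change of -1.61 (SE 0.24, adjusted p = 0.000151, edgeR) against UC and -1.40 (SE 0.28, adjusted p = 0.00145) against VC-T. VC-T 1 stood at 50.6, and with it the value against VC-T was -1.22 (SE 0.34) and was not called (adjusted p = 0.41, edgeR). Without VC-T 2 the call against VC-T was lost (-0.98, adjusted p = 0.141). The share of spermatogonia-like cells in cluster 22, the cluster high in Aff4, moved with it, at 4.07 to 5.96% in T, 32.7 to 50.6% in UC, 50.8 and 32.4% in VC-T 2 and VC-T 3 and 9.69% in VC-T 1. Within cluster 16 alone, a fit added after seeing the data, Aff4 was at 26.6 ± 8.98 in T, while UC had 21.7 ± 6.13 and VC-T 22.9, and the log2 fold change was 0.41 (SE 0.45, adjusted p = 0.676, edgeR) against UC and 0.30 (SE 0.39, adjusted p = 0.704) against VC-T, so that the direction turned. Within cluster 22 alone, with 14 Aff4 UMIs in T, it was -0.36 (SE 0.42, adjusted p = 0.638) against UC, where 12.5% of genes were called.

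In spermatocyte-like cells Aff4 was at 39.9, 34.7 and 42.1 CPM in T, 26.6 and 23.2 in VC-T and 22.02, 29.2 and 29.5 in UC. T lay above both, called against VC-T (log2 fold change 0.46, SE 0.13, adjusted p = 0.0371, edgeR) and not against UC (0.39, SE 0.13, adjusted p = 0.136). VC-T 1 was at 37.7. The call was lost in 7 of 15 alternatives, including DESeq2 (adjusted p = 0.104), VC-T 1 kept in (0.28, adjusted p = 0.366), cells matched on pseudotime (0.50, adjusted p = 0.108) and the fits without T 3, VC-T 2 or VC-T 3 (0.112 to 0.213). Cluster 10 held a larger share of T. It was also the highest in Aff4 of the spermatocyte-like clusters present in all 8 control libraries, at 53.1 CPM. The spermatogonial markers given with Hexim1 were higher in the same cells of T. Within bin 2, of which 99.2% were spermatocyte-like cells, T was at 29.6 to 38.8 against 21.7 to 26.5 in UC and 18.5 to 20.4 in VC-T, and within bin 3 it was at 29.4 to 39.1 against 18.4 to 27.9 and 21.5 to 22.5, above both without overlap.

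**Figure D4:**
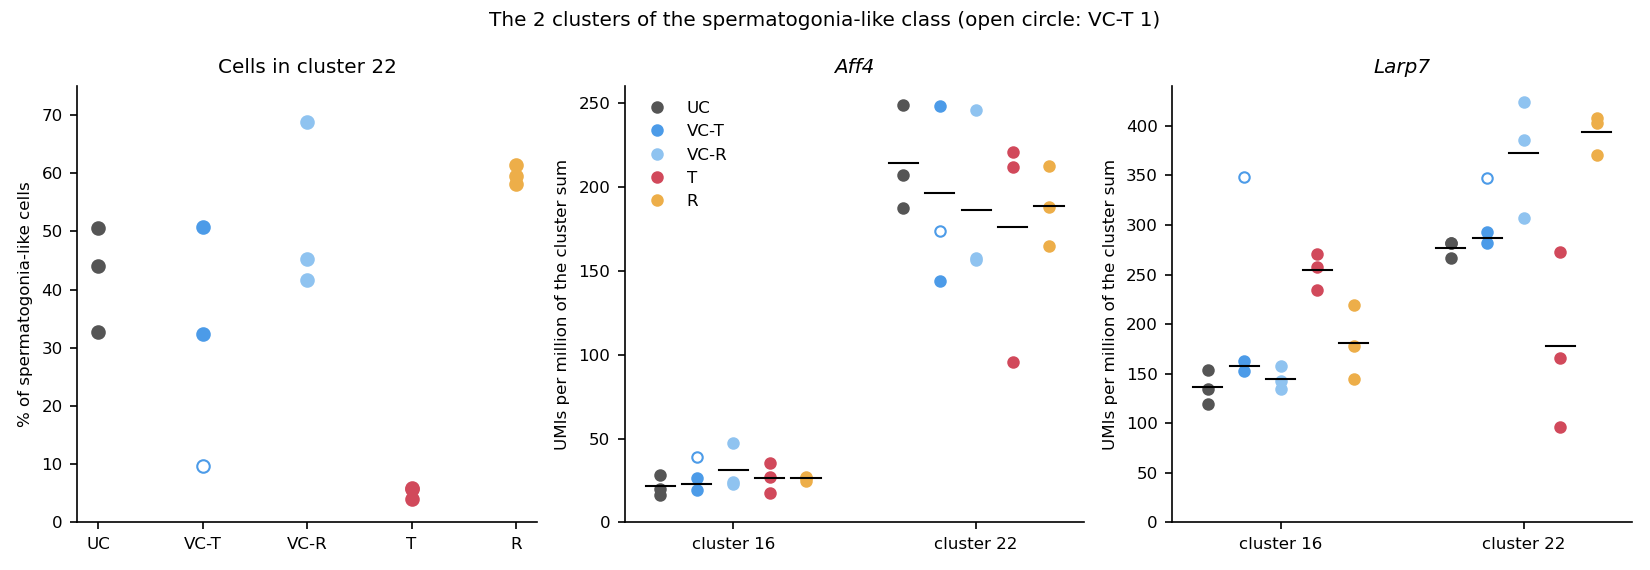
Share of spermatogonia-like cells in cluster 22 by library (left, y axis in percent), and CPM of Aff4 and Larp7 in clusters 16 and 22 by library (middle and right). Bars are group means without VC-T 1, which is the open circle. Few cells of T were in cluster 22 (4.07 to 5.96%), Aff4 overlapped between T and UC within each cluster, and Larp7 in cluster 16 of T (234 to 271) lay above UC (120 to 154).

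Larp7 was also compared within the clusters of the spermatogonia-like class. Over the whole class it was not called in T (log2 fold change 0.32, SE 0.15, adjusted p = 0.175, against UC). Within cluster 16 it stood at 271, 257.5 and 234 CPM in T, above UC (120 to 154) and above VC-T 2 and VC-T 3 (152 and 163). The log2 fold change there was 0.83 (SE 0.18, adjusted p = 0.00661, edgeR) against UC, where 7.94% of genes were called, and 0.66 (SE 0.17, adjusted p = 0.0193) against VC-T, where 12.7% were. VC-T 1 was higher still, at 348. This fit was added after seeing the data. Cluster 22 went the other way: Larp7 was at 273, 166 and 95.8 in T, from 15 UMIs in all, and at 282, 267 and 282 in UC, with a log2 fold change of -0.57 (SE 0.40, adjusted p = 0.378, edgeR).

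Whether a change differed between spermatocyte-like and spermatid-like cells was tested as an interaction for T against UC. None of the 8 genes passed (0.419% of 14803 genes did), and 3 had an unadjusted p under 0.05, namely Ell (-1.31, adjusted p = 0.0740), Ccnt1 (-0.62, adjusted p = 0.176) and Aff4 (-0.39, adjusted p = 0.324) in edgeR. For R against UC, 0 of 15751 genes passed, and 0 of the 8 genes had an unadjusted p under 0.05.

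The comparison of R with UC and VC-R asked what remained 6 wk after the last dose. Against UC, 2 of 26 tested pairs in 4 germ cell classes were called (7.69%, against 17.3% of all pairs), both higher (9.58% of all pairs were higher and 7.73% lower) and neither past an absolute log2 fold change of 1 (3.39%). All genes were called at 14.5% in spermatogonia-like, 0.00748% in spermatocyte-like, 45.4% in spermatid-like and 6.04% in spermatozoa-like cells. Against VC-R, 1 of 25 was called (4%, against 8.64%), and it was higher (4.77% of all pairs were higher, 3.87% lower and 2.11% past a log2 fold change of 1). All genes called against VC-R were in spermatid-like cells (29.6% there and 0 in the other 3 classes). Aff4 in spermatogonia-like cells, the largest difference in T, stood at 115, 141 and 120 CPM in R, 102, 101 and 113 in UC and 187.5, 80.1 and 101 in VC-R, with a log2 fold change of 0.21 (SE 0.16, adjusted p = 0.402, edgeR) against UC. Ell in spermatid-like cells stood at 8.65, 11.1 and 12.9 in R, above UC on this scale, overlapping after TMM scaling and not called (0.41, SE 0.21, adjusted p = 0.112, edgeR). Cluster 14, at 45.3 CPM of Ell in control libraries, held 23.4% of the pooled spermatid-like cells of R and 5.99% of those of UC. The part of this cluster in the level of R was not tested. Mepce in spermatid-like cells stood at 29.0, 26.4 and 28.1 in R, above 24.7, 25.3 and 23.6 in UC, but the groups overlapped after TMM scaling (25.2 to 27.0 against 24.9 to 28.1) and the log2 fold change was -0.03 (SE 0.12, adjusted p = 0.863). In the same comparison Hexim1 in spermatocyte-like cells was at 0.25 (SE 0.18, adjusted p = 0.718). A p above the threshold does not show that R and UC were equal.

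Larp7 was higher in spermatogonia-like cells of R, at 303, 283.5 and 344 CPM against 199, 188 and 207 in UC. R lay above UC without overlap (log2 fold change 0.64, SE 0.13, adjusted p = 0.00154, edgeR). VC-R stood at 350, 242 and 231, overlapping R (0.16, SE 0.17, adjusted p = 0.826). The call was lost with UC and VC-R as controls together (0.38, adjusted p = 0.170) and with cells matched on pseudotime (0.40, adjusted p = 0.487). Cluster 22, in which Larp7 was higher, held 58.1 to 61.3% of the class in R, 32.7 to 50.6% in UC and 41.6 to 68.8% in VC-R, and within cluster 22 alone the value was 0.51 (SE 0.14, adjusted p = 0.0390, where 3.36% of genes were called), while within cluster 16 alone it was 0.39 (adjusted p = 0.461, where 0.747% were).

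Aff4 was higher in spermatid-like cells of R, at 46.6, 44.0 and 51.4 CPM against 32.0, 28.6 and 35.7 in UC and 35.9, 29.8 and 28.3 in VC-R. R lay above both, with a log2 fold change of 0.34 (SE 0.11, adjusted p = 0.0154, edgeR) against UC and 0.38 (SE 0.12, adjusted p = 0.0305) against VC-R. Clusters of few UMIs made up 68.3 to 83.1% of spermatid-like cells in R, 23.5 to 34.5% in UC and 19.0 to 38.2% in VC-R, and Aff4 varied among them. In the control libraries that held them, clusters 18 and 19 (18.6% and 16.7% of the pooled cells of R) had 134 ± 43.7 and 97.3 ± 31.6 CPM (n = 3 and 5) and cluster 14 (23.4%) had 43.0 ± 24.0 (n = 7), whereas clusters 17 (16.5%) and 9 (2.34%) had 11.9 ± 5.44 and 17.1 ± 5.35 (n = 2 and 8). Clusters 2, 7 and 15 had 26.7 to 39.2. Without the clusters of few UMIs, an alternative added after seeing the data, the values were 0.09 (SE 0.12, adjusted p = 0.654) against UC and 0.19 (SE 0.13, adjusted p = 0.539) against VC-R, where 20.7% and 0.0157% of genes were called. The call against UC was lost in 8 of 17 alternatives, which also included the fits without R 3, UC 1 or UC 2 (adjusted p of 0.0573 to 0.0978), DESeq2, all groups in one fit, cells of at least 2000 UMIs and matching on pseudotime (0.0558 to 0.134). The call against VC-R was lost in 10 of 16, which also included the fits without R 1, R 3, VC-R 2 or VC-R 3 (0.0866 to 0.152), DESeq2, no filter on low counts, a replicate block and cells of at least 2000 UMIs (0.0528 to 0.183), and matching on pseudotime, where the value was 0.13 (adjusted p = 0.543).

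**Figure D5:**
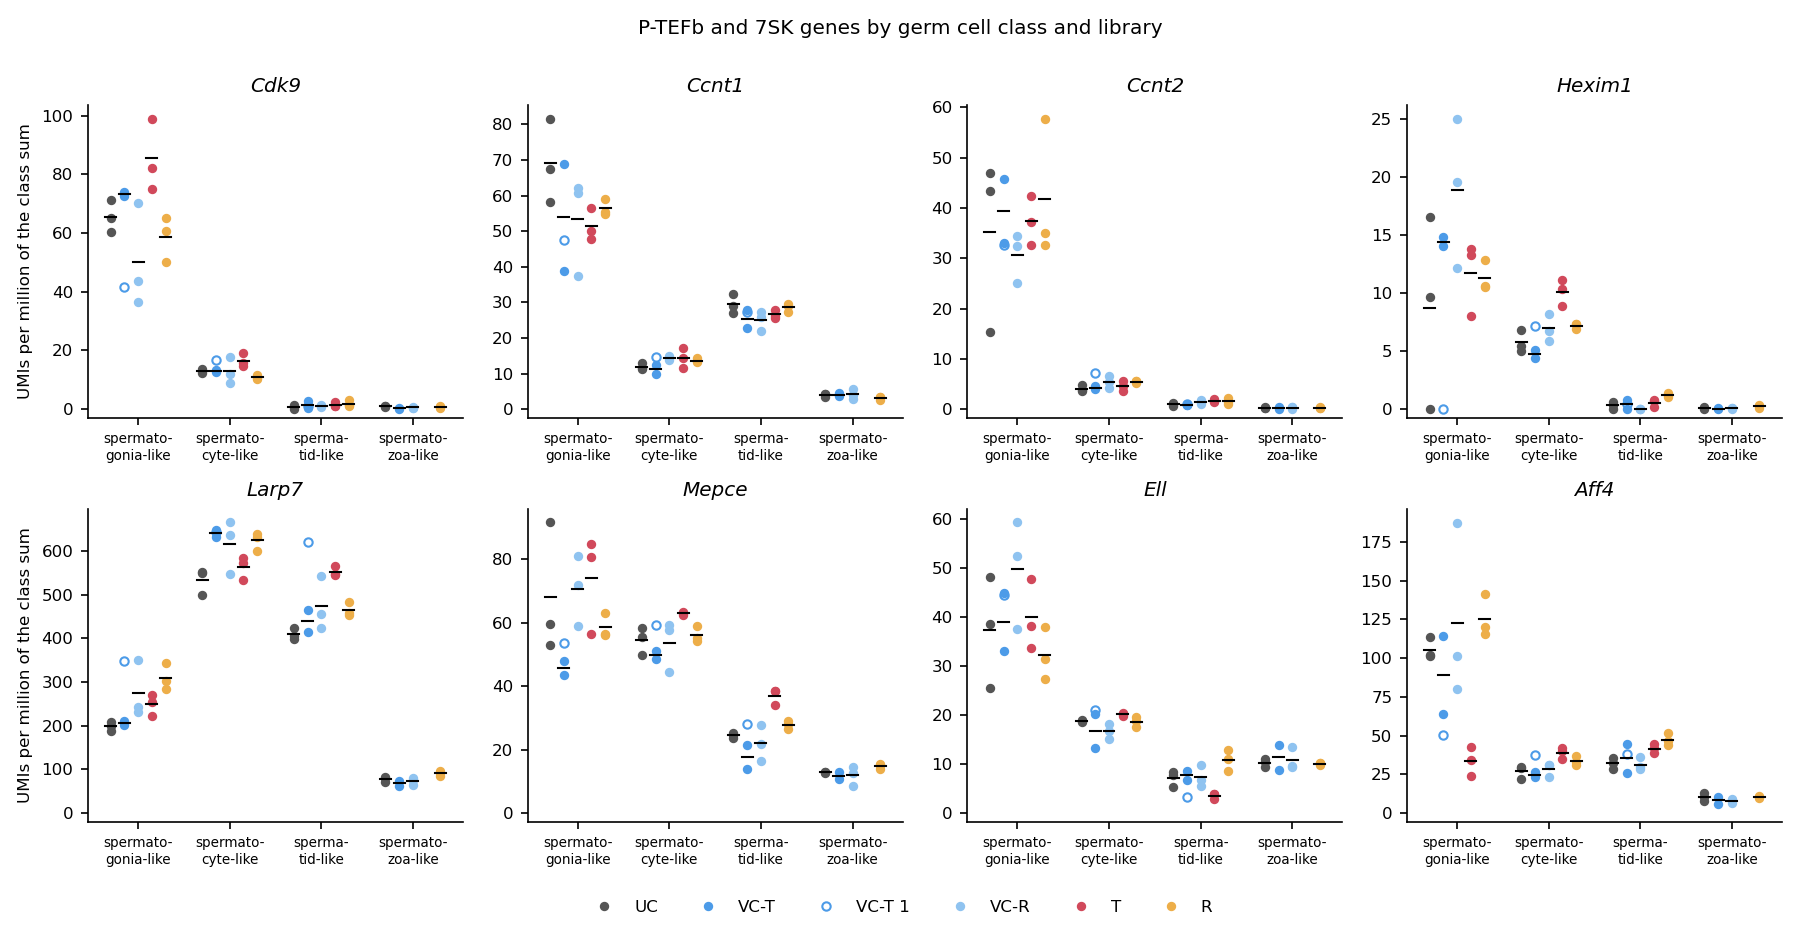
CPM of the class sum (y axis) for each of the 8 genes in the 4 germ cell classes (x axis), by library. Points are libraries coloured by group, bars are group means without VC-T 1, and VC-T 1 is the open circle. T is missing for spermatozoa-like cells, of which it had 1 to 4 per library. Aff4 in spermatogonia-like cells of T (23.9 to 42.6) lay below the UC and VC-T libraries.

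In the sums of Sertoli-like cells, the somatic support cells, UMIs of the 8 genes were counted, but free RNA was not subtracted and spermatozoa markers stood there at 2857 to 11740 CPM in control libraries, so that these values do not show that Sertoli cells express the genes. The means were 51.3 ± 29.0 CPM for Cdk9, 31.0 ± 10.8 for Ccnt1, 28.9 ± 18.1 for Ccnt2, 25.5 ± 20.4 for Hexim1, 188 ± 62.2 for Larp7, 26.9 ± 16.4 for Mepce, 13.0 ± 9.99 for Ell and 80.5 ± 33.1 for Aff4 (SD, n = 8). T was not tested there, since T 2 had 4 such cells and the class was tested only where every library held at least 10. In R against UC, 2 of 6 tested genes were called (25.7% of all genes). Aff4 was at 45.1, 36.5 and 35.7 in R and 68.3, 96.1 and 123 in UC (log2 fold change -1.34, SE 0.29, adjusted p = 0.00669, edgeR). Larp7 was at 257.5, 272 and 360 in R and 273, 118 and 169 in UC, which overlapped on this scale and not after TMM scaling (0.90, SE 0.27, adjusted p = 0.0265). Against VC-R, edgeR called 0 of 6 (3 at an unadjusted p under 0.05) and 0 of all genes (23.9% at an unadjusted p under 0.05). The Aff4 call was lost in 4 of 15 alternatives: without UC 3 (-0.95, adjusted p = 0.253) or R 2 (0.0504), with all groups in one fit (0.0725) and with a replicate block (0.145). The Larp7 call was lost in 10 of 15: without R 2, R 3, UC 2 or UC 3 (0.0767 to 0.185), and by DESeq2, without TMM scaling, with all groups in one fit, with a replicate block, at 2000 UMIs or more and with UC and VC-R as controls (0.0542 to 0.155). UC had 31 to 111 Sertoli-like cells per library and R had 438 to 2175. Of the 5 spermatozoa markers all were detected in these sums, and together they stood at 6765 to 8261 CPM in R and 4468 to 6368 in UC. The 8 Sertoli markers stood at 5784 to 7700 and 5873 to 13880. The part of germ cell RNA in these results was not tested.

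Other genes of elongation were counted by lists, which were chosen with earlier results known. In spermatid-like cells of T against UC, 5 of 7 further super elongation complex genes were tested, and 1 was higher and 3 lower, where 18.3% of all genes were higher and 22.6% lower. Eaf1, a partner of ELL, was at -2.20 (SE 0.25, adjusted p = 5.79e-06, edgeR) against UC and -2.09 (SE 0.28, adjusted p = 0.000309) against VC-T, and Mllt3 was at -0.70 (SE 0.16) and -0.93 (SE 0.18). In the same class and comparison, of 6 pausing factors 2 were higher and 1 lower, and Supt5, the large DSIF subunit and a CDK9 substrate, was at 0.60 (SE 0.14, adjusted p = 0.00342) against UC and 0.95 (SE 0.16, adjusted p = 0.00163) against VC-T. Of 10 RNA polymerase II subunits tested in spermatid-like cells, 5 were higher and 0 lower against UC, and 3 of 11 were higher against VC-T, where 9.04% of all genes were. Against UC, 3 of 8 other 7SK and release factors were higher and 0 lower in this class, with Hnrnpa2b1 at 0.40 (SE 0.10). Of 13 elongation factors 3 were higher and 3 lower, and of 8 other transcription kinases and their partners 4 were higher and 1, Cdk8, was lower (-0.80, SE 0.18). Without VC-T 2 the values against VC-T were -1.97 for Eaf1, -0.87 for Mllt3, 0.88 for Supt5 and 0.57 for Brd2, each still called (31.9% of all genes were). The cluster mix of the class, given with Larp7 above, differed between T and UC. In spermatocyte-like cells of T, Eaf1 and Ell2 were higher against VC-T (1.35, SE 0.39, adjusted p = 0.0448, and 1.17, SE 0.31, adjusted p = 0.0327), and neither was called against UC. In spermatogonia-like cells of T, Eaf2 was lower against VC-T (-1.48, SE 0.29, adjusted p = 0.00105), and Eloa (-1.27 and -1.08) and Polr2k (-0.55 and -1.03) were lower and Ccnk (0.58 and 0.65) was higher against UC and VC-T. Within cluster 16 alone, Ccnk was still called (0.89 and 1.07, adjusted p of 0.0196 and 0.00291), Polr2k (adjusted p of 1.00 and 0.0663) and Eaf2 (-0.82, adjusted p = 0.188, against VC-T) were not, and Eloa could not be tested. In spermatid-like cells of T, Tcea1 (-0.81 and -0.73) and Eloc (-0.52 and -0.59) were lower against UC and VC-T, and without VC-T 2 the call of Tcea1 against VC-T was lost (adjusted p = 0.0748).

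Among the 4 BET genes, whose proteins JQ1 binds, Brdt was lower in spermatogonia-like cells of T (-0.85, SE 0.20, adjusted p = 0.00681, against UC and -0.72, SE 0.20, adjusted p = 0.0191, against VC-T, edgeR), and Brd2 was higher in spermatid-like cells (0.29, SE 0.08, and 0.60, SE 0.12). The direction of Brdt turned within cluster 16 alone, at 0.83 (SE 0.28, adjusted p = 0.0715) against UC and 1.09 (SE 0.26, adjusted p = 0.0120) against VC-T, and within cluster 22 alone it was -0.92 (adjusted p = 0.109) and -1.04 (adjusted p = 0.0980). Brdt was higher in spermatocyte-like cells of T against VC-T (0.30, SE 0.08, adjusted p = 0.0354) and in spermatogonia-like cells of R against UC (0.71, SE 0.15, adjusted p = 0.00282), where cluster 22 held 60% of the pooled cells of R, 41.7% of UC and 5.3% of T, and in R the call was lost within either cluster (0.29 and 0.34). In R against UC, 5 of 13 RNA polymerase II subunits were lower in spermatogonia-like cells, where 5.76% of all genes were. Of these 5, none was called within cluster 16 alone and Polr2j alone within cluster 22 (-0.64, adjusted p = 0.0230). None was called in spermatogonia-like cells against VC-R, where edgeR called 0 of 8774 genes (744 at an unadjusted p under 0.05). Hexim2, the paralog of Hexim1, was lower in spermatid-like cells of R against UC (-0.45, SE 0.11, adjusted p = 0.00245) and VC-R (-0.53, SE 0.13, adjusted p = 0.0145), and without the clusters of few UMIs it was not called (-0.06 and -0.22). The fits of these lists without VC-T 2, within single clusters and without clusters of few UMIs were added after seeing the data.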

How the data were processed

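The authors aligned reads to mm10 and deposited 1 matrix a library of raw UMI counts, genes by barcodes. The submitters' processing notes name Cell Ranger 3.0.0 and the matrix headers 7.0.0. Whether introns were counted is not given in the sources used here. Counts were not corrected for ambient RNA. Barcodes with fewer than 500 genes or 1000 UMIs, or with 30% or more mitochondrial UMIs, were dropped, and in each library the 5.4% with the highest Scrublet score were removed. Counts scaled to 10000 were clustered (scanpy 1.11.5, 2000 variable genes, leaving out the 8 genes and 7 others, 30 components, 20 neighbours, Leiden resolution 1.2), and clusters were named from marker lists. The members, lists and tests were chosen with earlier results of these data known. UMIs were summed per library and class with at least 10 cells and tested with edgeR 4.0.16 (R 4.3.3; filterByExpr, TMM, quasi-likelihood) on the groups compared, with Benjamini-Hochberg adjustment over all genes of the class. DESeq2 1.42.0 was an alternative. Each library is 1 mouse. All 8 genes are named whatever their values. Genes of the lists were to be named where they passed, but only some of those are printed, chosen after their values were seen. Tested on simulated counts for T against UC, 2-fold changes were recovered for 50% of genes in spermatogonia-like cells (7874 genes) and 84% in spermatid-like cells (12422 genes), and 4-fold changes for 95% in each. Values below a few UMIs carry counting error, and a count of 0 allows up to 3 counts. The genes nearest to Larp7 in pattern are not reported here.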

Additional observations from a re-analysis of the deposited data

How the results depend on the processing

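Of the 15 called pairs named in the report, the alternatives kept the call 166 times, lost it 66 times and turned the direction 2 times (Aff4 in spermatogonia-like cells within cluster 16 alone, 0.41 against UC and 0.30 against VC-T). Ell in spermatid-like cells of T against UC kept its call in all 15 alternatives that gave a value. The count of called pairs for T against UC was 4. It was 1 with cells matched on pseudotime, where 67 to 356 cells of a class entered from each library and the call was a different pair (Larp7 in spermatogonia-like cells, 0.73, adjusted p = 0.0494, edgeR), and 3 to 4 when a library was left out. For T against VC-T it was 6, and it was 1 matched (Mepce in spermatocyte-like cells, 0.51, adjusted p = 0.0406), 0 with VC-T 1 kept in and 2 to 6 when a library was left out (2 without VC-T 2, 3 without T 3). For R against UC it was 2, and it was 1 with DESeq2, with all groups in one fit, at 2000 UMIs or more, matched, with UC and VC-R as controls and in cluster 16 alone, 4 without TMM scaling or without doublet removal, and 1 to 2 when a library was left out (1 without R 3, UC 1 or UC 2). For R against VC-R it was 1, and it was 2 with all groups in one fit, 0 with a replicate block, at 2000 UMIs or more, matched or without clusters of few UMIs, and 0 to 2 when a library was left out (2 without VC-R 1; 0 without R 1, R 3, VC-R 2 or VC-R 3). Matched, the call for R against UC was also a different pair (Larp7 in spermatid-like cells, 0.20, adjusted p = 0.0218), and neither of the 2 named calls was kept. Matching changes both the number of cells and their stages, and the cause of these shifts was not tested. DESeq2 called 3, 4, 1 and 1 pairs in the 4 comparisons. Its 1 pair in R against VC-R was not the named call of Aff4 in spermatid-like cells, which it lost. With a block for the replicate number the counts were 4, 6, 2 and 0. The 6 for T against VC-T were not all the named pairs, since the block lost the call of Larp7 in spermatocyte-like cells. The deviations of same-numbered libraries from their group means had correlations from -0.681 to 0.78 (median -0.00148, 13 of 39 over 0.1). Each mean was over 2 or 3 libraries, so these values cannot show whether same-numbered libraries share more than a number. Without TMM scaling the median log2 fold change of all genes moved by up to 0.228. After subtracting an ambient profile, Hexim1 in spermatozoa-like cells of controls went to 0 and Larp7 to 61.5 CPM. A planned filter on clusters of few UMIs removed no cluster and gave no value. Cdk9, Ccnt2 and Hexim1 in spermatid-like cells, with 0 to 18 UMIs in each control group, were below the filter on low counts in every comparison but that of Cdk9 in T against VC-T.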

Other observations

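Hexim1 in spermatid-like cells was too sparse for the test across genes, and it is described here after its values were seen. R had 9, 9 and 23 Hexim1 UMIs, or 1.39, 1.02 and 1.25 CPM, while the 3 VC-R libraries had 0. A count of 0 allows 3 counts, or 0.612 to 1.07 CPM in these libraries. The UC libraries stood at 0.386, 0 and 0.656 and T at 0.776, 0.175 and 0.698. Clusters of few UMIs made up 68.3 to 83.1% of the spermatid-like cells of R, and their part in this difference was not tested.

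In spermatid-like cells of R, several other elongation genes differed from both controls, which share the R libraries. Nelfb, a subunit of the pausing factor NELF, was at 1.07 (SE 0.23, adjusted p = 0.000566, edgeR) against UC and 0.84 (SE 0.23, adjusted p = 0.0194) against VC-R. Cdc73, of the PAF1 complex, was at 0.81 (SE 0.12) and 0.83 (SE 0.18), and Cdk8, the Mediator kinase, at 0.75 (SE 0.13) and 0.99 (SE 0.14). Elob and Eloc were lower, Elob at -0.40 and -0.36 and Eloc at -0.48 and -0.42. Of 13 elongation factors, 3 were higher and 3 lower against UC, and 2 and 2 against VC-R. Brdt was lower, at -0.29 (SE 0.09) and -0.32 (SE 0.10). Supt6, Cdk12 and Eaf2 were also called higher against both controls, and Ppm1g, Srsf2, Polr2f and Polr2i lower. In this class 45.4% of all genes were called against UC and 29.6% against VC-R. Clusters of few UMIs held 68.3 to 83.1% of the class in R, 23.5 to 34.5% in UC and 19.0 to 38.2% in VC-R. Without them 20.7% and 0.0157% of genes were called, and none of Nelfb, Cdc73, Cdk8 and Brdt was. Values without these clusters are not given here for the other genes named, Elob and Eloc among them. Nelfb was at 0.36 and 0.32, Cdc73 at 0.15 and 0.25, Cdk8 at 0.24 and 0.57 and Brdt at -0.03 and -0.0027 (adjusted p of 0.214 to 0.994, edgeR).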
